A study of Mus musculus with 24 samples.

Results

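The collagen genes of the mouse were followed in inguinal white adipose tissue, the subcutaneous fat depot of the groin, after deletion of LPCAT3, an enzyme that places polyunsaturated fatty acids on membrane phospholipids. They were taken as every gene of the count table whose symbol is COL, a number, A and a number, which gave 44 of 35727 genes. Of these, 39 had enough counts to be tested and 5 (Col2a1, Col9a1, Col9a2, Col19a1 and Col25a1) did not. The 6 groups were wild-type (WT) and knockout (KO) male mice aged 18 to 22 weeks on 1 of 3 diets that drew 60% of calories from fat and were enriched in saturated (SFA), omega-6 (n6) or omega-3 (n3) fatty acids. Each group had 4 bulk RNA-seq libraries, 24 in all, and every comparison is between mice on a high-fat diet. The design calls the knockout mice AdL3KO, while neither the promoter that drives the deletion nor the allele is named in the sources used here. The labels do not say that each library came from a separate animal, so p-values measure only the spread between these libraries. Mature adipocytes are named in the title of the series, yet no step of the protocols isolates them. Beside the fat cell gene Adipoq, which stood at 1262 to 2165 CPM (counts per 1000000 counts of the library), the libraries held the stromal gene Pi16 at 114 to 221 CPM and the endothelial gene Pecam1 at 189.5 to 326 CPM, so that the samples are read as whole tissue. Depth ranged between 43600000 and 62100000 estimated counts per library.

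Lpcat3 itself was lower in every KO library than in every WT library of the same diet, at 70.8 to 81.0 against 97.8 to 129 CPM on SFA, 47.7 to 50.1 against 66.0 to 72.9 on n6 and 53.7 to 61.3 against 112 to 119 on n3. A pair of KO libraries stood apart for collagens within their groups: replicate 3 on SFA was the lowest and replicate 1 on n3 the highest library of its group for Col1a1, Col1a2 and Col3a1. The numbers of chains called between genotypes on these diets are given with and without them. So are the genotype differences of Col1a1, Col1a2, Col3a1, Col5a1 and Col6a3. Replicate 3 on SFA was also the lowest of its group for Col6a1, Col6a2 and Col14a1. The SFA differences of these chains are given only with it, and their SFA calls held with each library left out. For other chains the differences are given with both libraries included. A further 3 libraries, KO on n6 replicates 1 and 2 and WT on SFA replicate 3, had high levels of B cell or muscle markers and are called the 3 marker-high libraries below.

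Collagens are extracellular proteins of 3 α chains wound around each other into a triple helix, each chain made by its own gene. The helix needs glycine, the smallest amino acid, at the first place of every Gly-X-Y triplet, and the prolines that often follow it are hydroxylated before secretion. Fibrillar collagens (types I, III and V) form the banded fibrils of connective tissue, type IV forms the sheet of the basement membrane that wraps each fat cell and vessel, and type VI forms beaded filaments at the border of both. In fat, most fibrillar chains come from stromal fibroblasts and progenitors, and fat cells also make type IV, V, VI and XV chains. A stiff pericellular collagen coat, type VI above all, is known for limiting the growth of fat cells in obesity.

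The architecture that separates the 3 large classes can be read from their coding sequences. The stretches below are 99 bases each, 5′ to 3′, from GENCODE M21 transcripts of GRCm38, with positions counted from the A of the start codon and every glycine codon in capitals. They open the longest uninterrupted Gly-X-Y run of 2 fibrillar chains (Col1a1 from 502 to 600, Col3a1 from 490 to 588), 1 basement membrane chain (Col4a1 from 127 to 225) and 2 type VI chains (Col6a1 from 766 to 864, Col6a3 from 6493 to 6591).
Col1a1: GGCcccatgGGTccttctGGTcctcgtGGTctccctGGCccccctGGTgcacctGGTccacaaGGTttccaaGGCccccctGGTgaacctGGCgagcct
Col3a1: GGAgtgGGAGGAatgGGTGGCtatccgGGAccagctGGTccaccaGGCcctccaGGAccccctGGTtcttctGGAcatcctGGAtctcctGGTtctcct
Col4a1: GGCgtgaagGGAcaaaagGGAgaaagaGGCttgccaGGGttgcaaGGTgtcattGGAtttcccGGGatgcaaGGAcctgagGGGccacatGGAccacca
Col6a1: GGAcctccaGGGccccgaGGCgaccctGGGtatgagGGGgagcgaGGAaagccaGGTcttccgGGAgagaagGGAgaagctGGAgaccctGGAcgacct
Col6a3: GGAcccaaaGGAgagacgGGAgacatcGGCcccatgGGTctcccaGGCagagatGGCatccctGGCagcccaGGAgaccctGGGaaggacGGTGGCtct
All 5 hold the same repeat. They differ in how long it lasts: 338 triplets without a break in Col1a1 and 344 in Col3a1, against 40 in Col4a1, 87 in Col6a1 and 45 in Col6a3. A further stretch of Col4a1, from 433 to 531, runs across the end of its longest run and shows such a break, where glycine codons stop coming every 3 codons and the repeat is then taken up again.
Col4a1 break: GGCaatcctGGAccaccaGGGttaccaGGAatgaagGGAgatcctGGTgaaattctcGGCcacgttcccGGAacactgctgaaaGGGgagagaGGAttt
Counting runs of at least 5 triplets, the 11 fibrillar chains had 2 to 3 runs with a longest run of 216 to 344 triplets. The 6 type IV chains had 16 to 24 runs, the longest of 39 to 66 triplets, and the 6 type VI chains had 2 to 4 runs, the longest of 37 to 87. Type VI chains carry little helix for their length: triplets filled 7.9% of the codons of Col6a3 and 28.1% of those of Col6a1, against 73.3% in Col1a1 and 61.5% in Col4a1.

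Levels per transcript length, in TPM (transcripts per 1000000 transcripts), ranked the chains over all 24 libraries. Col3a1, the type III chain, led with a mean of 1287 TPM, followed by the type IV chains Col4a1 at 897 and Col4a2 at 570.3 and the type I chain Col1a2 at 426. Col6a2 at 363, Col1a1 at 359, Col15a1 at 312, Col6a1 at 304, Col5a3 at 262 and Col6a3 at 174 came next. The remaining tested chains ranged from 131 TPM for Col5a2 to 0.0384 for Col6a4. By class, fibrillar chains held a median of 48.4% of all collagen TPM in WT on SFA, type IV chains 25.3%, type VI chains 16.1% and the multiplexins Col15a1 and Col18a1 8.15%. Fibril-associated, network and transmembrane chains made up the remainder. The type VI share did not overlap between genotypes on SFA (15.9 to 17.3% in WT, 13.5 to 15.2% in KO) or on n6 (16.6 to 18.0% against 14.4 to 15.1%), and overlapped on n3 (15.1 to 15.8% against 13.7 to 15.2%). The type IV share was higher in every KO library on n6 (28.6 to 31.6% against 25.7 to 27.9% in WT), and the fibrillar share overlapped between genotypes on all 3 diets. These shares were not tested.

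More collagen chains were lower than higher in KO on each diet. Averaged over the 3 diets, 22 of the 39 tested chains fell and 2 (Col7a1 and Col28a1) rose, with a median log2 fold change of -0.24. Both rises were lost on log2(TPM + 1), at 0.07 for Col7a1 (adjusted p = 0.402) and 0.04 for Col28a1 (adjusted p = 0.727), and that of Col7a1 also without the 3 marker-high libraries (adjusted p = 0.195), with no filter on low counts (adjusted p = 0.0576) and with the effective lengths implied by the deposited TPM (adjusted p = 0.378). The median of all genes on log2(TPM + 1) was -0.157 for this average. At a mean of 0.344 TPM, the added 1 also shrinks the log2 fold change of Col7a1, which was 0.18 on log2(TPM + 0.1) (adjusted p = 0.468). Over all 15259 genes tested, 57.6% were called in that comparison, 29.8% lower and 27.8% higher, and the median was -0.01. On SFA 20 chains fell and 1 rose (median -0.34, background 39.9% called, 19.9% lower). On n6 19 fell and 4 rose (median -0.25, background 43.1% called, 22.1% lower and 21% higher). On log2(TPM + 1) the n6 split was 22 lower and 1 higher, beside 53% of all genes called. The median of all genes on that scale was -0.125, -0.16 and -0.188 on SFA, n6 and n3. On n3 15 fell and none rose (median -0.21, background 38.8% called, 18.7% lower and 20.1% higher). All 4 libraries of KO lay below all 4 of WT for 20, 18 and 11 chains on SFA, n6 and n3, against 18.1%, 19.7% and 15.6% of all genes. Without KO replicate 3, 17 chains were lower and 1 higher on SFA (median -0.27), and without KO replicate 1, 13 were lower and 0 higher on n3 (median -0.20). In bulk tissue, fewer cells of a type and less RNA per cell cannot be told apart.

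**Figure D1:**
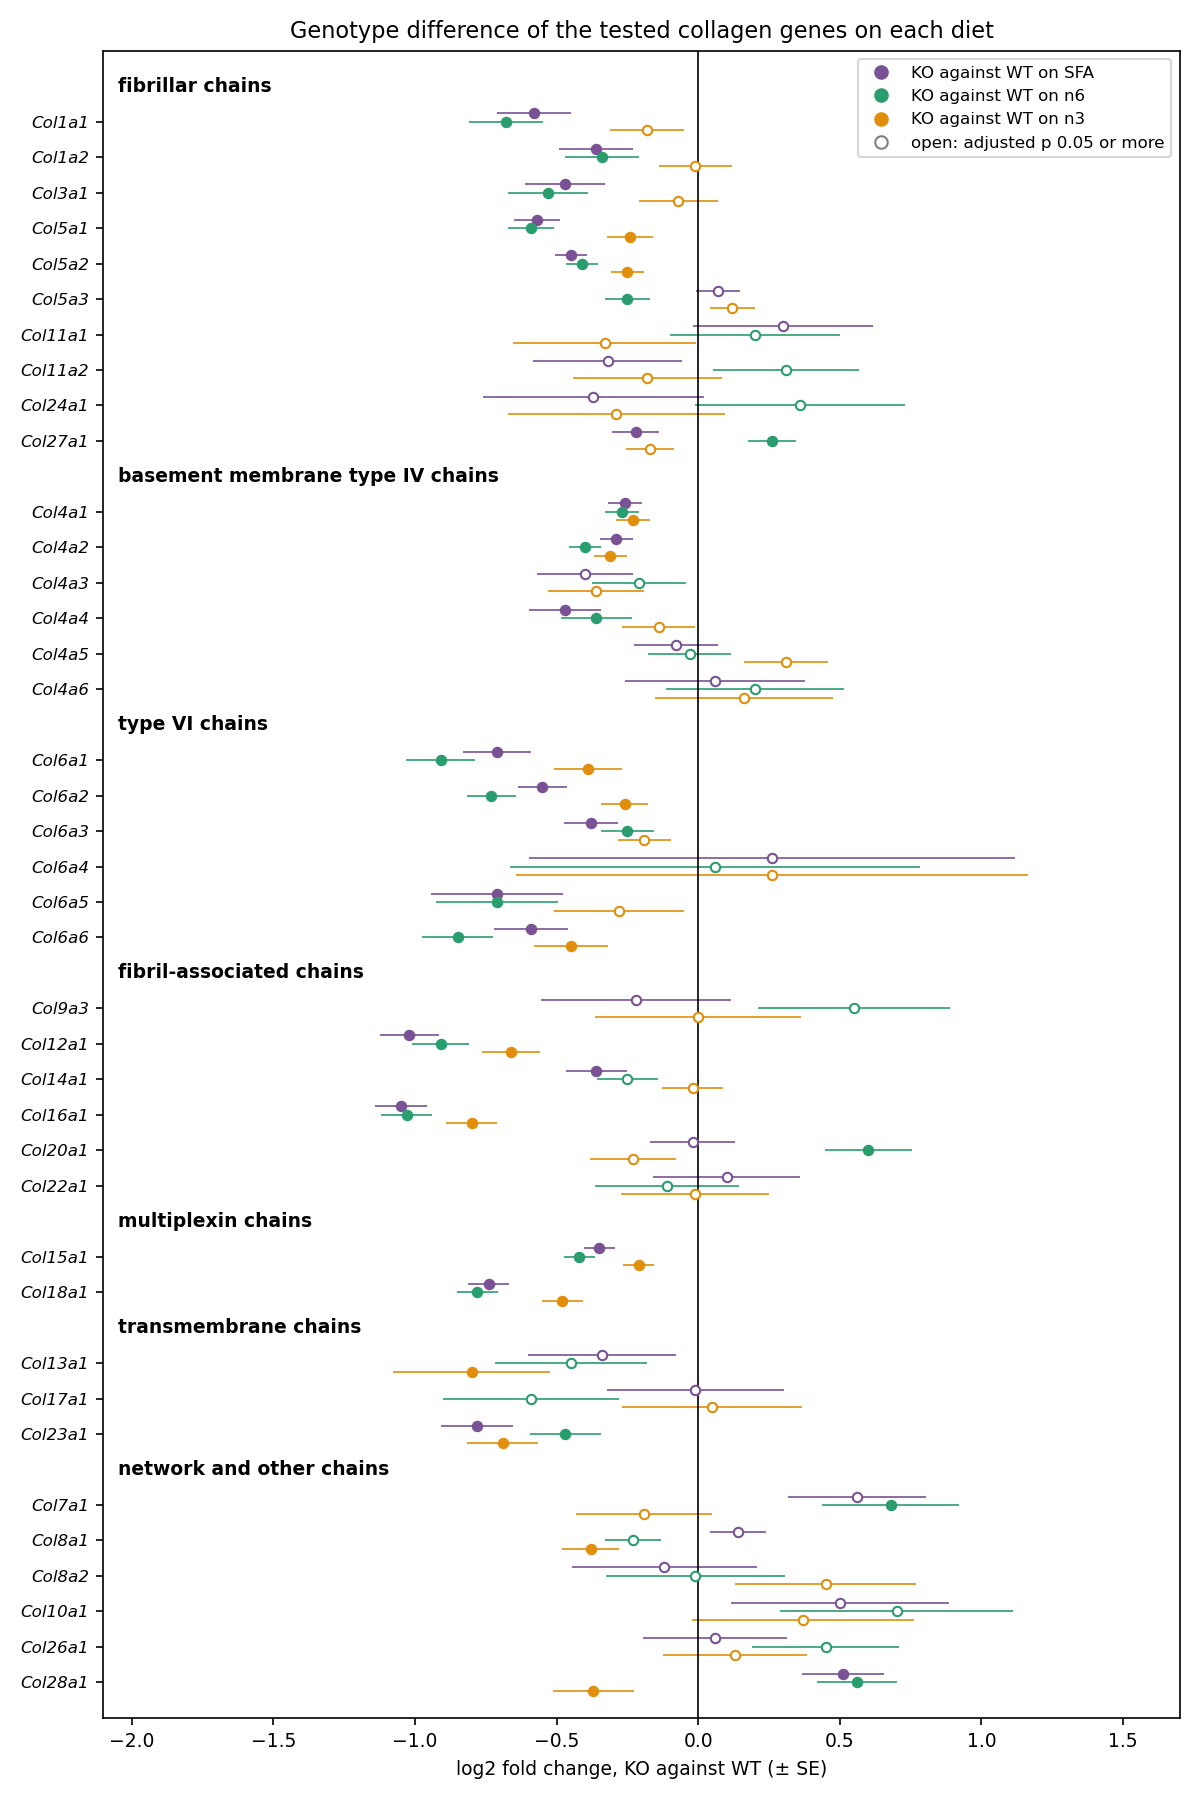
The log2 fold change of KO against WT (± SE) is plotted for each of the 39 tested collagen genes on the SFA, n6 and n3 diets, grouped by class, with filled points for adjusted p under 0.05. Most fibrillar, type IV and type VI points lie left of 0, and the n3 points of many chains lie nearer to 0 than their SFA and n6 points, while Col28a1 lies right of 0 on SFA and n6 and left of it on n3.

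The genotype comparisons on different diets share no library, so their lists can be set side by side. Of the 20 chains lower on SFA, 18 (90.0%) were also lower on n6, where they were 94.7% of the list. For SFA and n3 the shared number was 12, 60.0% and 80.0% of the lists. Shares for pairs of diets were not counted over all genes, so these percentages cannot show a trait of collagens. These 12 chains, lower on all 3 diets, were Col4a1, Col4a2, Col5a1, Col5a2, Col6a1, Col6a2, Col6a6, Col12a1, Col15a1, Col16a1, Col18a1 and Col23a1, against 10% of all genes lower on all 3 diets. Of the 18 chains lower on both SFA and n6, 16 had their smallest difference on n3, the others being Col4a2 and Col23a1. These 18 chains were chosen by their calls on SFA and n6 and not on n3. That choice by itself favours a smaller difference on n3, so the count cannot show an effect of diet. It was not made for all genes chosen in the same way. For most of them the difference between diets did not itself pass the test, as given with the interaction below.

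Markers of cell types were also compared between genotypes. Over all genes, 19.9%, 22.1% and 18.7% were lower and 20%, 21% and 20.1% higher on SFA, n6 and n3. Averaged over diets, 29.8% were lower and 27.8% higher. Counts of 1 or 2 genes of a list on a single diet were therefore near or below these shares. Of 10 stromal progenitor genes, 8 were lower in KO on SFA, 5 on n6 and 2 on n3, with median log2 fold changes of -0.41, -0.23 and -0.14. Their summed level was 1589 to 1647 CPM in WT and 1110 to 1436 in KO on SFA, 1540 to 1698 and 1391 to 1560 on n6, and 1614 to 1690 and 1401 to 1686 on n3. Of 8 macrophage genes, 8, 6 and 5 were lower (medians -0.50, -0.51 and -0.42), and of 8 endothelial genes 7 were higher on SFA, 1 was higher on n6 and 2 were lower on n3. The summed endothelial level was nonetheless apart on n6 alone, at 1149 to 1309 CPM in WT and 1460 to 1574 in KO. It overlapped on SFA (889 to 1119 and 1053 to 1474) and on n3 (1016 to 1403 and 885 to 1312). Of 8 mural cell genes (pericytes and vascular smooth muscle), 5 were lower on n3, of 7 B cell genes 5 were higher on n6, and of 7 tested gland epithelium genes 5 were higher on n3. Of 8 fat cell genes, 2, 4 and 3 were higher and 2, 2 and 2 lower on the 3 diets. Of 8 skeletal muscle genes, 4 were higher and 1 lower averaged over diets (median 1.45), and on single diets 1 was lower on SFA and none was called on n6 or n3. None of the B cell genes was called in that average, and of 2 tested mesothelial genes none was called. The part of these shifts in the collagen differences was not tested. Dcn and Lum, which stand on the stromal list, are matrix genes themselves.

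Of 10 tested fibrillar chains, 6 were lower on SFA, 6 on n6 and 2 on n3, beside 19.9%, 22.1% and 18.7% of all genes, so that the n3 share was near the background. These counts were not tested between diets. The chains had median log2 fold changes of -0.37, -0.30 and -0.18 on the 3 diets, and 1 (Col27a1) was higher on n6. Col1a1, which encodes the chain present in 2 copies in each type I molecule, stood at 1376, 1413, 1351 and 1404 CPM in the WT libraries on SFA and at 1043, 922, 653 and 1099 in KO. On n6 it stood at 1708, 1555, 1634 and 1466 against 1173, 959, 929 and 914 CPM. On n3 it stood at 1188, 1418, 1487 and 1220 against 1408, 971, 1049 and 1278 CPM. The genotypes were apart on SFA and n6 and overlapped on n3, where KO replicate 1 was among the high values of either genotype. The log2 fold change was -0.58 ± 0.13 (adjusted p = 0.00125) on SFA, -0.68 ± 0.13 (adjusted p = 0.000226) on n6 and -0.18 ± 0.13 (adjusted p = 0.306) on n3, each ± the standard error. Without KO replicate 3, Col1a1 on SFA came to -0.44 ± 0.11 (adjusted p = 0.00393), and without KO replicate 1 the n3 value came to -0.27 ± 0.13 (adjusted p = 0.122).

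Col1a2, the partner chain in type I collagen, had smaller differences. Its levels were 1355, 1422, 1325 and 1374 CPM in WT and 1171, 1110, 758 and 1217 in KO on SFA. On n6 they were 1584, 1500, 1579 and 1285 against 1365, 1180, 1083 and 1056 CPM, and on n3 1258, 1391, 1531 and 1261 against 1692, 1123, 1188 and 1410 CPM. KO replicate 3 was the lowest library on SFA and KO replicate 1 on n3 the highest of all 24, and the groups overlapped on n6 and n3. The differences were -0.36 ± 0.13 (adjusted p = 0.0307), -0.34 ± 0.13 (adjusted p = 0.0374) and -0.01 ± 0.13 (adjusted p = 0.97) on SFA, n6 and n3. The SFA call was lost in 4 and the n6 call in 6 of 8 fits without 1 library, and on SFA the value was -0.23 ± 0.11 (adjusted p = 0.124) without KO replicate 3. The n3 value without KO replicate 1 was -0.13 ± 0.13 (adjusted p = 0.446).

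Col3a1, the only chain of type III collagen, which shares fibrils with type I, was the most abundant collagen transcript. It measured 4218, 4429, 4141 and 4194 CPM in WT on SFA and 3395, 3305, 2036 and 3562 in KO. The n6 libraries held 5007, 4924, 5164 and 4279 against 3897, 3389, 3152 and 3008 CPM, and the n3 libraries 3494, 4078, 4488 and 3462 against 4509, 3118, 3202 and 3938 CPM. As for Col1a1, the groups were separate on SFA and n6 and overlapped on n3. The log2 fold changes were -0.47 ± 0.14 (adjusted p = 0.0112), -0.53 ± 0.14 (adjusted p = 0.00431) and -0.07 ± 0.14 (adjusted p = 0.722), and the SFA value without KO replicate 3 was -0.31 ± 0.11 (adjusted p = 0.0376). Without KO replicate 1 the n3 value was -0.18 ± 0.14 (adjusted p = 0.346).

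Type V collagen seeds fibrils and sets their width. Col5a2 was 569.9, 549, 571 and 542 CPM in WT and 432, 413, 382 and 407 in KO on SFA, 596, 588, 599 and 560.5 against 479.5, 406, 447 and 426 on n6, and 536, 581, 573 and 537 against 514, 452, 417 and 485 on n3. Every KO library lay below every WT library on all 3 diets, including the libraries that stood apart for type I and III chains. It fell, at -0.45 ± 0.06, -0.41 ± 0.06 and -0.25 ± 0.06 (adjusted p = 1.17e-06, 2.91e-06 and 0.00118) in log2 units. Col5a1 changed alike, at -0.57 ± 0.08, -0.59 ± 0.08 and -0.24 ± 0.08, the last with overlapping groups and an adjusted p of 0.0247 that was lost in 4 of 8 fits without 1 library. Its SFA value was -0.47 ± 0.07 (adjusted p = 7.66e-06) without KO replicate 3. Its n3 value was -0.27 ± 0.09 (adjusted p = 0.0225) without KO replicate 1. Col5a3, the third type V chain, did not follow: it was 0.07, -0.25 and 0.12, lower on n6 alone (adjusted p = 0.0121), with an adjusted p of 0.516 on SFA and 0.252 on n3. The rare fibrillar chains Col11a1, Col11a2 and Col24a1 lay at or below 1.36 CPM in every library and passed no genotype test, and Col2a1 was not tested.

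**Figure D2:**
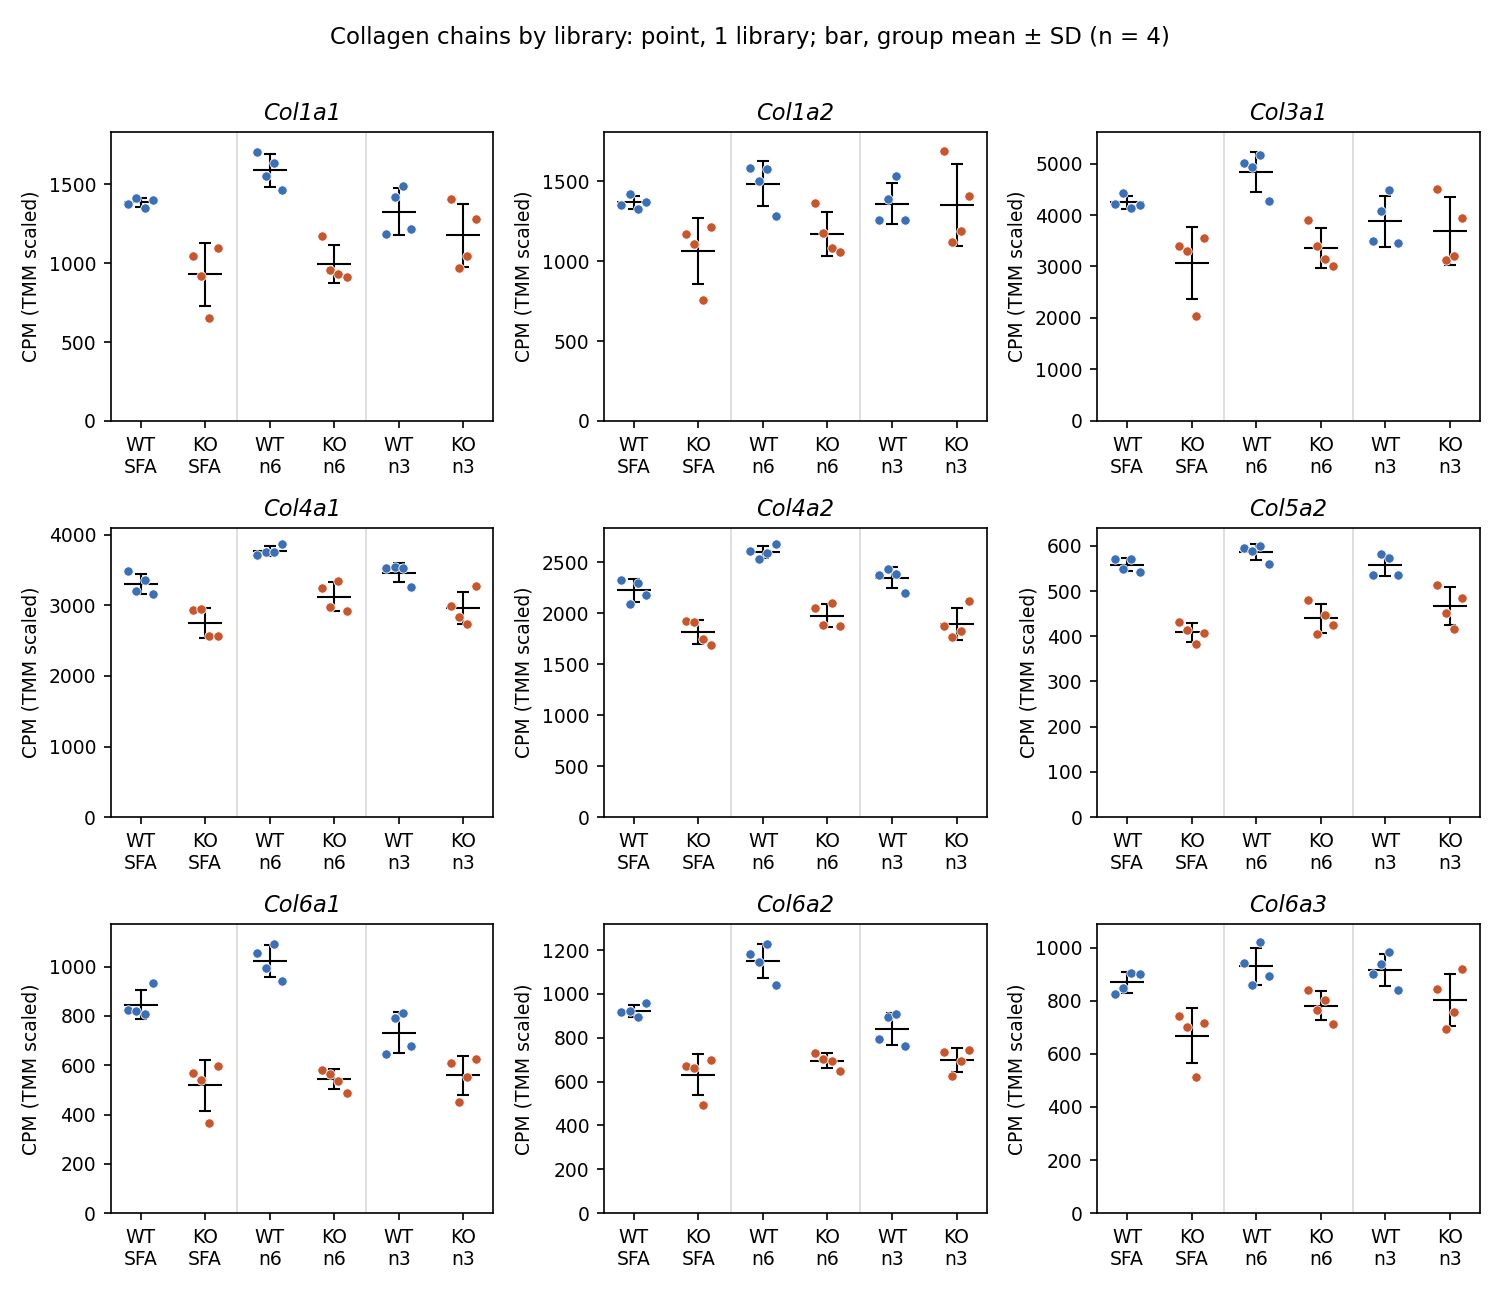
CPM of 9 collagen chains is plotted for each of the 24 libraries (points, WT blue and KO orange) with the group mean ± SD of 4 libraries. KO lies below WT in every library on SFA for all 9 chains, and the fibrillar chains Col1a1, Col1a2 and Col3a1 overlap between genotypes on n3, where 1 KO library is high.

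The type IV chains split by gene pair. The genes lie in 3 pairs that face away from each other with their starts close together: on GRCm38, Col4a1 (chromosome 8, 11198423 to 11312826, minus strand) and Col4a2 (chromosome 8, 11312805 to 11449287, plus strand) overlap by 22 bases, the starts of Col4a3 and Col4a4 on chromosome 1 lie 71 bases apart, and those of Col4a5 and Col4a6 on chromosome X 1308 bases apart. Col4a1 and Col4a2, which form the network found in nearly every basement membrane, fell on all 3 diets. Col4a3 and Col4a4 fell when averaged over diets, and Col4a5 and Col4a6 passed no genotype test.

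Col4a1 was 3484, 3207, 3359 and 3167 CPM in WT and 2930, 2946, 2572 and 2567 in KO on SFA. It was 3713, 3760, 3754 and 3870 against 3248, 2979, 3346 and 2921 on n6, and 3529, 3550, 3527 and 3260 against 2991, 2842, 2744 and 3275 on n3. The groups were apart on SFA and n6, and on n3 the highest KO library passed the lowest WT library. The differences of -0.26 ± 0.06, -0.27 ± 0.06 and -0.23 ± 0.06 (adjusted p = 0.00122, 0.00076 and 0.00479) were close to each other. Col4a2 gave 2329, 2092, 2301 and 2182 against 1929, 1913, 1748 and 1694 CPM on SFA, 2616, 2535, 2593 and 2677 against 2048, 1882, 2097 and 1876 on n6, and 2376, 2438, 2385 and 2204 against 1876, 1768, 1823 and 2121 on n3. Its groups were apart on each diet, with differences of -0.29 ± 0.06, -0.40 ± 0.06 and -0.31 ± 0.06 (adjusted p = 0.000346, 6.67e-06 and 0.000206). For both genes the 3 diets gave the same direction under every alternative and with each library left out.

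Col4a3 and Col4a4, chains of the network known from kidney and lung, were far less abundant. Col4a3 was 7.26, 5.72, 4.46 and 3.94 against 3.33, 5.25, 3.37 and 4.26 CPM on SFA, 6.27, 6.13, 6.93 and 6.78 against 5.86, 5.52, 5.55 and 5.64 on n6, and 4.39, 4.69, 6.08 and 5.16 against 4.11, 4.47, 2.84 and 4.41 on n3, WT first. KO lay wholly below WT on n6 only, and on no single diet did the test pass (-0.40 ± 0.17, -0.21 ± 0.17 and -0.36 ± 0.17), while the average over diets was -0.33 ± 0.10 (adjusted p = 0.0063). A share of 5.65% of its exonic bases is also exonic in a gene of the opposite strand, and the sources used here do not name the strand of the library. Col4a4 fell on SFA, at -0.47 ± 0.13 (adjusted p = 0.00504) and on n6 at -0.36 ± 0.13 (adjusted p = 0.0241), and was -0.14 ± 0.13 on n3. The n6 call was lost without the 3 marker-high libraries (adjusted p = 0.162).

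Of the fibrillar, type IV and type VI classes, type VI had the lowest medians: 5, 5 and 3 of 6 were lower on SFA, n6 and n3, with median log2 fold changes of -0.57, -0.72 and -0.27. The sixth, Col6a4, lay at or below 0.531 CPM. Over all genes, 19.9%, 22.1% and 18.7% were lower on the 3 diets. The type VI counts on SFA and n6 include Col6a5, whose calls did not hold under every alternative, as given below. The standard molecule joins the chains of Col6a1, Col6a2 and Col6a3. Col6a1 and Col6a2 lie on the same strand of chromosome 10, 85161 bases apart, Col6a3 lies alone on chromosome 1, and Col6a4, Col6a5 and Col6a6, whose products can take the place of the Col6a3 chain, lie in a row on chromosome 9.

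Col6a1 was 824, 821, 808 and 932 CPM in WT and 569.5, 540.4, 366 and 595 in KO on SFA. On n6 it was 1055, 995, 1090 and 944 against 582, 564, 537 and 489, and on n3 644, 791, 812 and 677 against 607, 449.9, 554 and 624. The genotypes were apart on all 3 diets, widely so on n6 and narrowly on n3. It fell, at -0.71 ± 0.12, -0.91 ± 0.12 and -0.39 ± 0.12 (adjusted p = 6.75e-05, 2.55e-06 and 0.0138), the last being lost without KO replicate 2 (adjusted p = 0.0617). Col6a2 was 918, 922, 894 and 958 against 673, 662, 492 and 699.9 CPM on SFA, 1184, 1148, 1228 and 1042 against 732, 704, 694 and 649.6 on n6, and 794, 896, 909.9 and 761 against 736, 627, 693 and 745 on n3. Its groups were likewise apart on each diet, at -0.55 ± 0.09, -0.73 ± 0.09 and -0.26 ± 0.08 (adjusted p = 1.77e-05, 3.05e-07 and 0.0169). The last call was lost without KO replicate 2 too (adjusted p = 0.0697).

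Col6a3, the longest type VI chain and the source of the adipokine endotrophin, was lower in KO on SFA and n6. Its levels were 826, 846, 904 and 899.9 CPM in WT and 741, 700, 514 and 716 in KO on SFA. They were 942, 860.2, 1020 and 894 against 840, 763, 804 and 713 on n6, and 901, 939, 984 and 841 against 845, 692, 756 and 918 on n3. The groups were apart on SFA and n6 and overlapped on n3. The differences were -0.38 ± 0.10 (adjusted p = 0.00265), -0.25 ± 0.10 (adjusted p = 0.0356) and -0.19 ± 0.10 (adjusted p = 0.118). Leaving out 1 library ended the n6 call in 4 of 8 fits. The SFA value was -0.27 ± 0.08 (adjusted p = 0.00997) without KO replicate 3. The n3 value was -0.22 ± 0.10 (adjusted p = 0.114) without KO replicate 1.

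Col6a6, at 8.53 to 11.4 CPM in WT and 5.15 to 7.81 in KO on SFA, fell on every diet, at -0.59 ± 0.13, -0.85 ± 0.13 and -0.45 ± 0.13 (adjusted p = 0.000934, 9.89e-06 and 0.00874), with groups apart throughout. Col6a5 fell on SFA, at -0.71 ± 0.23 (adjusted p = 0.0172) and on n6 at -0.71 ± 0.22 (adjusted p = 0.01). That n6 value depends on the length assigned to the transcript: with the effective lengths implied by the deposited TPM it was 0.17 (adjusted p = 0.749). The SFA call was lost on log2(TPM + 1) (adjusted p = 0.233) and without WT replicate 1, KO replicate 1 or KO replicate 3 (adjusted p = 0.0548, 0.0575 and 0.0639). The per-library values of both genes are given with the diets.

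Averaged over diets, the largest falls among the tested collagen genes were those of 2 fibril-associated chains, Col16a1 (-0.96 ± 0.05, adjusted p = 6.15e-13) and Col12a1 (-0.86 ± 0.06, adjusted p = 3.82e-11), which sit on the surface of fibrils. Col16a1 was 65.8, 63.9, 65.9 and 68.9 CPM in WT and 34.1, 32.3, 26.96 and 34.3 in KO on SFA. On n6 it was 85.4, 70.9, 84.2 and 62.3 against 37.6, 33.8, 37.3 and 39.8, and on n3 68.7, 74.3, 67.5 and 66.96 against 42.03, 34.8, 37.8 and 44.1. Every KO library of any diet stayed below every WT library of any diet. The differences were -1.05 ± 0.09 (adjusted p = 6.51e-09), -1.03 ± 0.09 (adjusted p = 6.78e-09) and -0.80 ± 0.09 (adjusted p = 4.16e-07). Col12a1, which links fibrils to tenascin and other matrix, was 61.3, 54.96, 62.6 and 53.7 against 31.4, 32.6, 23.1 and 27.9 CPM on SFA, 82.6, 68.6, 78.3 and 61.4 against 42.03, 34.5, 39.05 and 39.4 on n6, and 69.7, 66.6, 70.4 and 63.5 against 50.2, 39.5, 39.02 and 42.5 on n3. It was separated in the same way over all diets, at -1.02 ± 0.10, -0.91 ± 0.10 and -0.66 ± 0.10 (adjusted p = 8.04e-08, 2.91e-07 and 2.84e-05).

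Col14a1, a marker of fibroblasts that binds decorin, passed the genotype test on SFA and missed it on n6 and n3. It was 98.2, 96.9, 95.04 and 96.0 CPM in WT and 75.8, 88.1, 55.98 and 82.1 in KO on SFA, 119, 98.9, 112 and 104 against 89.9, 100.3, 91.04 and 83.2 on n6, and 93.5, 106, 121 and 97.99 against 114, 101, 88.5 and 109 on n3. Its differences were -0.36 ± 0.11 (adjusted p = 0.0112), -0.25 ± 0.11 (adjusted p = 0.0635) and -0.02 ± 0.11 (adjusted p = 0.911), and the change of this difference from SFA to n3 did not pass the test (adjusted p = 0.252). Of the other tested fibril-associated chains, Col9a3 and Col22a1 lay at or below 0.621 CPM and passed no genotype test, and Col20a1 is described with the interaction.

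The multiplexins, basement membrane collagens whose tail pieces (endostatin from Col18a1, restin from Col15a1) act on vessels, both fell on all 3 diets with groups apart. Col15a1 stood at 1014 to 1078 CPM in WT and 761 to 884 in KO on SFA, with differences of -0.35 ± 0.06, -0.42 ± 0.06 and -0.21 ± 0.06 (adjusted p = 2.38e-05, 1.48e-06 and 0.00515). Col18a1 stood at 369.6 to 417 CPM in WT and 209.8 to 261 in KO on SFA, with differences of -0.74 ± 0.07, -0.78 ± 0.07 and -0.48 ± 0.07 (adjusted p = 2.43e-08, 8.54e-09 and 1.4e-05). All 6 calls held with each library left out and under every alternative.

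Among transmembrane collagens, Col23a1 fell on every diet. It was 5.78, 5.08, 5.62 and 5.799 CPM in WT and 2.89, 2.905, 3.31 and 3.88 in KO on SFA, 5.64, 6.08, 5.44 and 6.25 against 3.59, 3.79, 4.19 and 5.31 on n6, and 7.38, 5.96, 5.397 and 7.47 against 3.45, 4.65, 4.07 and 4.03 on n3. No KO library reached the WT range of its diet. The differences were -0.78 ± 0.13 (adjusted p = 3.41e-05), -0.47 ± 0.12 (adjusted p = 0.00393) and -0.69 ± 0.12 (adjusted p = 0.000141), the n6 call ending without the 3 marker-high libraries (adjusted p = 0.134). Col13a1, at or below 1.22 CPM, fell on n3, at -0.80 ± 0.28 (adjusted p = 0.0249) with overlapping groups, a call lost with 3 of 8 libraries left out in turn, and Col17a1 passed no test.

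The network-forming and other chains went partly the other way. Col8a1, of the short-chain network made by vessel cells, was 13.1, 12.4, 12.2 and 11.8 CPM in WT and 14.3, 15.1, 12.7 and 12.4 in KO on SFA, 17.2, 13.9, 16.3 and 17.8 against 14.02, 15.1, 12.3 and 13.9 on n6, and 14.2, 13.6, 18.4 and 13.5 against 12.2, 10.6, 10.2 and 12.9 on n3. It was lower in all KO libraries on n3, where it fell, at -0.38 ± 0.10 (adjusted p = 0.00437), and was 0.14 ± 0.10 on SFA and -0.23 ± 0.10 on n6. The interaction missed the threshold (adjusted p = 0.0538). Col7a1, the anchoring fibril chain, rose on n6, at 0.68 ± 0.24 (adjusted p = 0.0256) at levels up to 1.295 CPM, with overlapping groups. That call was lost in 5 of 8 fits without 1 library and without the 3 marker-high libraries (adjusted p = 0.344). Col8a2, Col10a1 and Col26a1 lay at or below 0.683 CPM and passed no genotype test on any diet.

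Ratios of TPM within a library set chains of the same collagen type against each other without reference to other genes. The ratio of Col1a1 to Col1a2 was 0.877 to 0.904 in WT and 0.73 to 0.798 in KO on SFA. It was 0.912 to 1.01 and 0.709 to 0.761 on n6, and 0.831 to 0.9 and 0.734 to 0.802 on n3. The genotypes did not overlap on any diet. The ratio of Col5a3 to Col5a1 was 2.19 to 2.35 in WT and 3.15 to 4.2 in KO on SFA, 1.77 to 2.18 and 2.33 to 2.7 on n6, and 2.05 to 2.22 and 2.51 to 2.85 on n3, again without overlap.

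Within type VI, the ratio of Col6a3 to Col6a2 differed in level between genotypes and diets. In WT it was 0.425 to 0.492 on SFA, 0.347 to 0.402 on n6 and 0.496 to 0.557 on n3, with no overlap between diets. In KO it was 0.484 to 0.567, 0.507 to 0.531 and 0.522 to 0.595, so that the 3 diets overlapped. The ratio of Col6a1 to Col6a2 was 0.843 to 0.883 in WT and 0.737 to 0.785 in KO on n6, was also apart on SFA and overlapped on n3. The type IV pair overlapped on SFA, with Col4a1 to Col4a2 at 1.47 to 1.59 in WT and 1.52 to 1.69 in KO, while on n6 it was 1.47 to 1.57 against 1.66 to 1.71. These ratios were not tested.

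**Figure D3:**
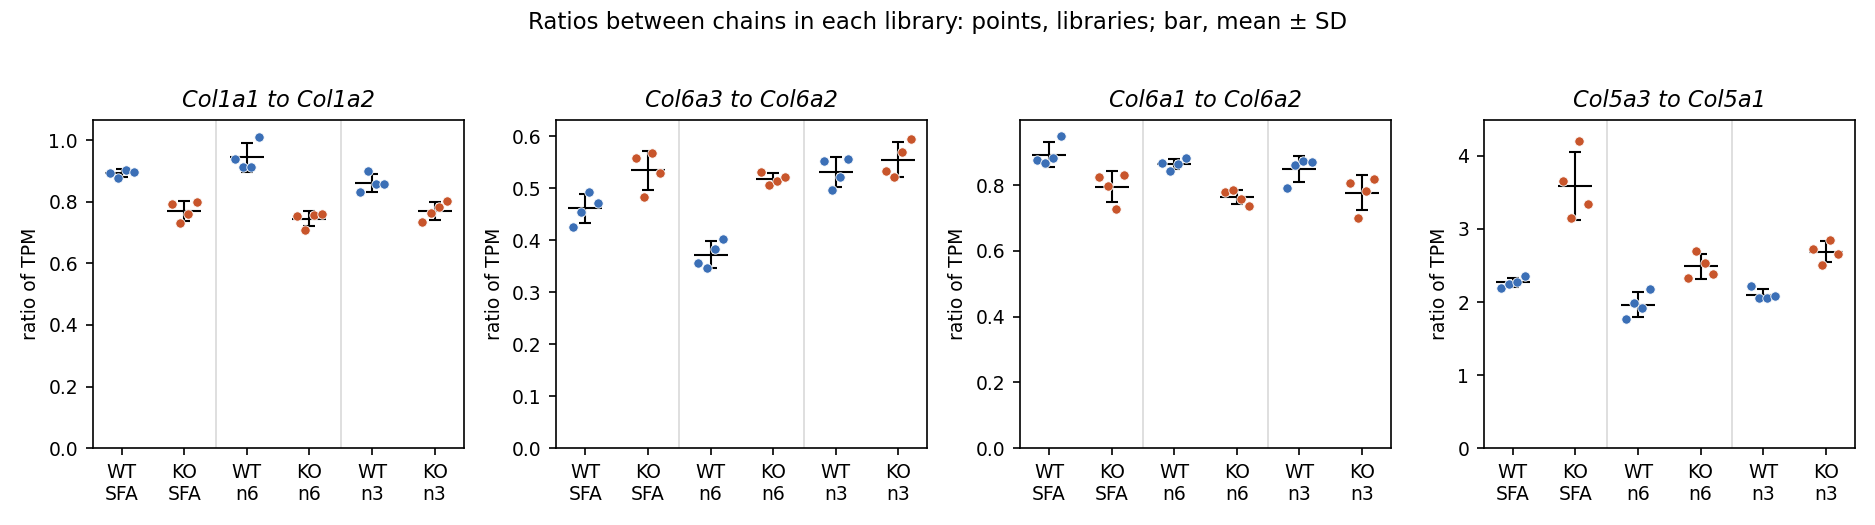
Ratios of TPM between collagen chains are plotted for each of the 24 libraries (points, WT blue and KO orange) with the group mean ± SD of 4 libraries. Col1a1 to Col1a2 is lower and Col5a3 to Col5a1 higher in every KO library than in every WT library of the same diet, and Col6a3 to Col6a2 is lowest in WT on n6.

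Whether the genotype difference depended on diet was tested with the interaction. It passed for 4 chains, Col28a1, Col27a1, Col20a1 and Col6a2, against 6.44% of all genes. Col28a1, a chain with von Willebrand A domains that is known from glial cells of nerves, was 17.4, 11.8, 13.8 and 10.9 CPM in WT and 19.5, 21.6, 20.3 and 15.7 in KO on SFA. On n6 it was 15.2, 19.6, 19.9 and 19.4 against 27.5, 25.9, 30.8 and 25.3, and on n3 23.4, 18.1, 22.96 and 20.2 against 14.3, 14.5, 15.3 and 21.3. KO was the higher genotype in every library on n6, and on n3 3 of 4 KO libraries lay below all WT libraries, replicate 4 being the exception. It rose, at 0.51 ± 0.14 (adjusted p = 0.00714) and 0.56 ± 0.14 (adjusted p = 0.00264) on SFA and n6 and fell, at -0.37 ± 0.14 (adjusted p = 0.0452) on n3. The interaction had an adjusted p of 0.013, the only one of the 4 that passed under every alternative and with each library left out. On log2(TPM + 1), where the medians of all genes were -0.125 and -0.16, the SFA and n6 calls were lost (adjusted p = 0.11 and 0.0566). The n3 call was lost in 6 of 8 fits without 1 library. Of 7 Schwann cell markers 3 were lower in KO on n3, where they summed to 90.2 to 123 CPM against 105 to 155 in WT, and 2 were higher and 1 lower on SFA. On n6, 2 were lower, and all 7 summed to 127 to 140.8 CPM in KO against 107.5 to 133.2 in WT. Their part in the difference was not tested.

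Col27a1, a fibrillar chain of cartilage, was 6.54, 6.19, 6.35 and 6.62 against 4.98, 6.08, 5.38 and 5.57 CPM on SFA, 5.16, 4.72, 5.498 and 5.38 against 6.71, 6.53, 6.14 and 5.49 on n6, and 6.498, 6.38, 6.42 and 5.92 against 5.06, 5.05, 5.73 and 6.54 on n3, WT first. It fell on SFA, at -0.22 ± 0.08 (adjusted p = 0.036) and rose on n6, at 0.26 ± 0.08 (adjusted p = 0.0144), with an interaction adjusted p of 0.0232. The SFA call was lost in 6 of 8 fits without 1 library, and the n6 call on log2(TPM + 1) (adjusted p = 0.649), without the 3 marker-high libraries (adjusted p = 0.241) and without WT replicate 2 or KO replicate 1 (adjusted p = 0.0594 and 0.0548). Col20a1, a rare fibril-associated chain, was 1.78, 1.49, 1.53 and 1.49 against 1.28, 1.41, 1.84 and 1.68 CPM on SFA, 0.932, 1.24, 1.03 and 1.38 against 1.72, 1.801, 1.41 and 2.002 on n6, and 1.69, 1.89, 1.84 and 1.42 against 1.23, 1.65, 1.46 and 1.49 on n3. WT on n6 was its lowest group, and KO stood above it at 0.60 ± 0.15 (adjusted p = 0.00294), with an interaction adjusted p of 0.0434. The n6 call of Col20a1 was lost on log2(TPM + 1), where the value was 0.10 (adjusted p = 0.219). At a mean of 0.587 TPM, the added 1 shrinks its log2 fold change. On log2(TPM + 0.1) the value was 0.25 (adjusted p = 0.219). The median of all genes on n6 was -0.16 on log2(TPM + 1) and -0.193 on log2(TPM + 0.1). For Col6a2 the fall on n6 exceeded that on n3, the difference between them being 0.46 ± 0.12 (adjusted p = 0.0194). Without the 3 marker-high libraries, the interaction adjusted p was 0.161 for Col27a1, 0.136 for Col20a1 and 0.0894 for Col6a2.

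Pairs of diets were compared in the same way. The genotype difference changed between n6 and SFA for Col27a1 alone (background 0.898%, 0.465% higher and 0.433% lower), and between n3 and SFA for Col28a1 alone (background 0.819%, 0.256% higher and 0.564% lower). Between n3 and n6 it changed for 5 chains (background 9.1%, 4.48% higher and 4.62% lower), namely Col5a3, Col6a2, Col20a1, Col27a1 and Col28a1. Of the chains with a smaller fall on n3, Col1a1 had a difference between n3 and n6 of 0.50 ± 0.18 (adjusted p = 0.087), Col3a1 0.46 ± 0.20 (adjusted p = 0.148), Col6a1 0.52 ± 0.17 (adjusted p = 0.0566) and Col5a1 0.35 ± 0.12 (adjusted p = 0.0579). These missed the threshold, and among the 12 chains lower on both n6 and n3 the difference passed for Col6a2 alone. That call was lost in 3 of 16 fits without 1 library and on log2(TPM + 1) (adjusted p = 0.0651).

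**Figure D4:**
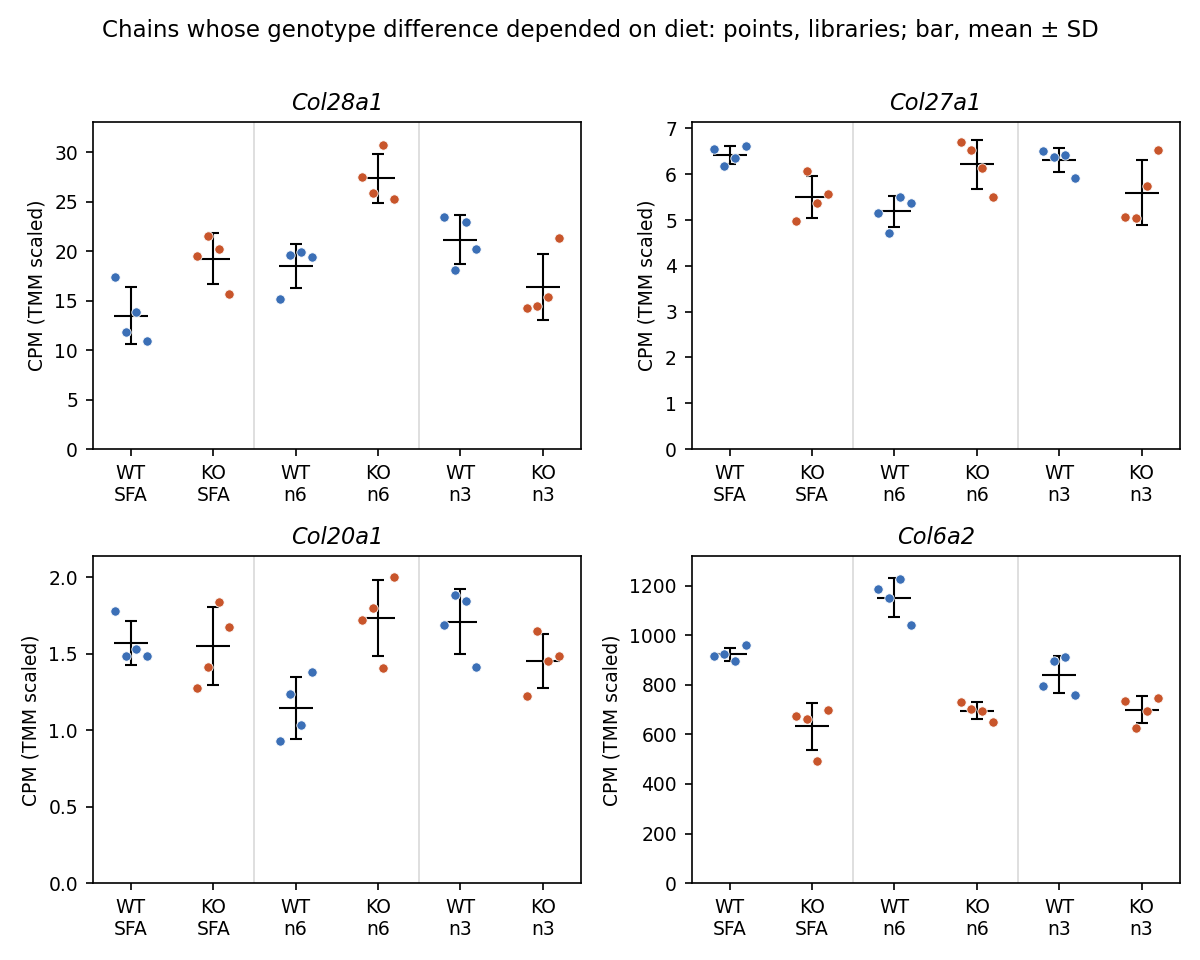
CPM of Col28a1, Col27a1, Col20a1 and Col6a2 is plotted for each of the 24 libraries (points, WT blue and KO orange) with the group mean ± SD of 4 libraries. KO lies above WT in every library on n6 for Col28a1 and Col20a1, the genotypes overlap for both on n3, and Col6a2 has its widest gap on n6.

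Diets were compared within each genotype, and the collagen counts are set beside those of all genes, which were also lowest for n3 against SFA. In WT, n6 against SFA gave 9 chains higher and 2 lower (background 24.7%, 11.6% higher and 13.1% lower), n3 against n6 gave 2 higher and 7 lower (background 18.4%, 9.82% higher and 8.61% lower), and n3 against SFA gave 0 in edgeR's quasi-likelihood test (background 0.144%, 0.0852% higher and 0.059% lower). At an unadjusted p under 0.05 that last comparison held 6 chains, a share that was not counted over all genes. DESeq2 called 1 chain there, beside 2.22% of all genes. In KO, n6 against SFA gave 7 higher and 1 lower (background 22.8%, 8.92% higher and 13.8% lower), n3 against n6 gave 0 higher and 4 lower (background 26%, 15.8% higher and 10.3% lower), and n3 against SFA gave 2 higher and 0 lower (background 1.46%, 0.826% higher and 0.636% lower). The 4 lower chains among the 39 tested were near the lower share of all genes. Comparisons within a genotype share their libraries. On log2(TPM + 1), n6 against SFA gave 18 higher and 0 lower in WT (background 40.9% called, median of all genes 0.14). In KO it gave 14 higher and 0 lower (background 25.4%, median 0.11). On the same scale n3 against n6 in WT gave 0 higher and 13 lower (background 25.8%, median -0.09).

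The chromosome 9 cluster of type VI genes held called diet differences in both genotypes. Col6a5 was 2.24, 1.87, 1.77 and 1.85 CPM in WT on SFA, against 4.53, 4.301, 4.42 and 2.41 on n6 and 1.704, 1.97, 2.54 and 1.62 on n3. The KO libraries held 0.964, 1.73, 0.912 and 1.12 on SFA, against 2.21, 2.73, 2.69 and 1.95 on n6 and 1.72, 1.31, 1.19 and 2.25 on n3. Both genotypes had their highest libraries on n6, while WT replicate 4 on n6, at 2.41 CPM, lay within the WT range on n3, and the n6 and n3 libraries of KO overlapped as well. It rose from SFA to n6 at 1.02 ± 0.22 (adjusted p = 0.00179) in WT and 1.02 ± 0.23 (adjusted p = 0.00386) in KO. With effective lengths from the deposited TPM, the WT value was 0.64 (adjusted p = 0.222).

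Col6a6 was 11.4, 10.04, 8.53 and 9.03 CPM in WT on SFA, against 18.3, 14.5, 15.7 and 13.9 on n6 and 8.51, 9.54, 10.2 and 7.97 on n3. Levels in KO were 6.28, 6.71, 5.15 and 7.81 on SFA, against 7.86, 8.81, 9.82 and 8.14 on n6 and 6.66, 7.76, 5.16 and 6.88 on n3. Every n6 library lay above every SFA and n3 library of its genotype. The log2 fold change of n6 against SFA was 0.68 ± 0.12 (adjusted p = 0.000557) in WT and 0.42 ± 0.13 (adjusted p = 0.0276) in KO, and of n3 against n6 -0.78 ± 0.12 (adjusted p = 0.000138) in WT and -0.39 ± 0.13 (adjusted p = 0.0358) in KO. The KO calls were lost without the 3 marker-high libraries, 2 of which are KO on n6 (adjusted p = 0.0803 and 0.0928).

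**Figure D5:**
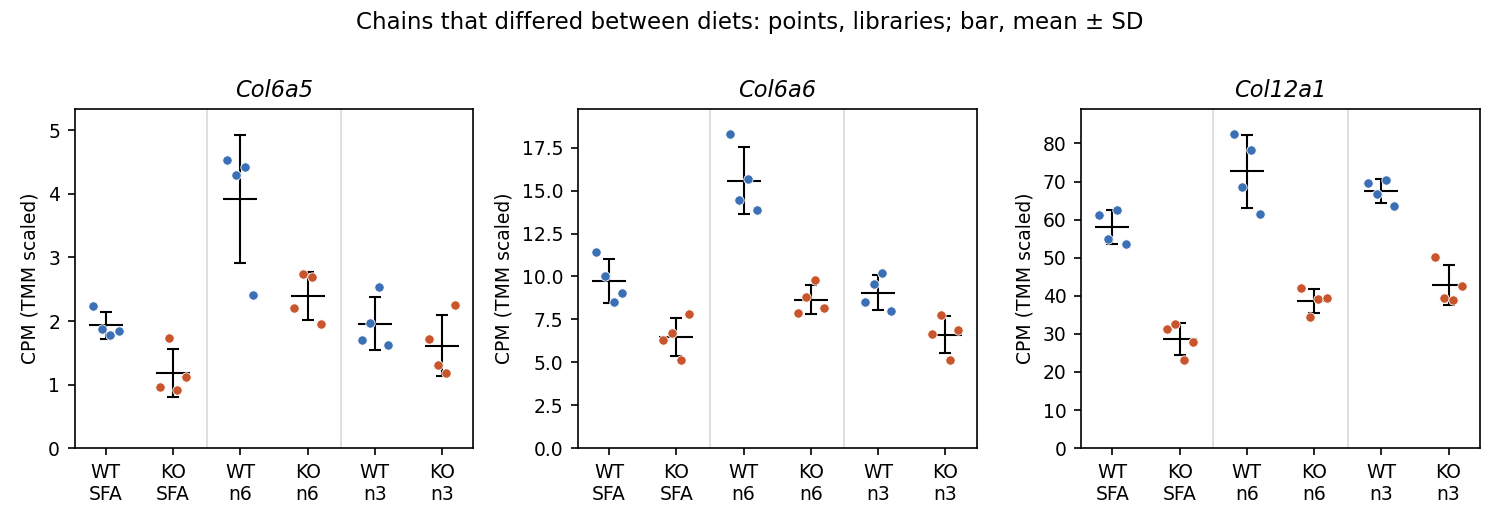
CPM of Col6a5, Col6a6 and Col12a1 is plotted for each of the 24 libraries (points, WT blue and KO orange) with the group mean ± SD of 4 libraries. Both type VI genes peak on n6 in either genotype, and Col12a1 is lower in every KO library than in every WT library.

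Of the chains of the standard type VI molecule, 2 passed a diet test in WT. Col6a2 rose on n6 against SFA, at 0.32 ± 0.08 (adjusted p = 0.0088) and fell on n3 against n6, at -0.45 ± 0.08 (adjusted p = 0.00063), and Col6a1 fell on n3 against n6, at -0.48 ± 0.12 (adjusted p = 0.00736). Col6a1 on n6 against SFA missed the threshold (adjusted p = 0.102), and Col6a3 passed neither test (0.10 and -0.02, adjusted p = 0.492 and 0.914). In KO the same contrasts of Col6a2 were 0.14 ± 0.08 and 0.01 ± 0.08, and passed no test (adjusted p = 0.245 and 0.938). Col4a2 rose on n6 against SFA in WT, at 0.23 ± 0.06 (adjusted p = 0.00685) and Col4a1 at 0.19 ± 0.06 (adjusted p = 0.023), the latter lost in 5 of 8 fits without 1 library. Col8a1 rose too, at 0.40 ± 0.10 (adjusted p = 0.00572), and held with each library left out. The type I and III chains passed no diet test in either genotype. In KO, Col12a1 was higher on n3 than on SFA at 0.58 ± 0.10 (adjusted p = 0.00573) and Col14a1 at 0.45 ± 0.11 (adjusted p = 0.0356), calls that were both lost on log2(TPM + 1). Col28a1 was higher on n6 than on SFA in WT (0.45 ± 0.14, adjusted p = 0.0257) and KO (0.51 ± 0.14, adjusted p = 0.0152), and both calls were lost without the 3 marker-high libraries (adjusted p = 0.0604 and 0.0743). The WT call was also lost with no filter on low counts (adjusted p = 0.0544) and in 5 of 8 fits without 1 library. Col28a1 was lower on n3 than on n6 in KO (-0.74 ± 0.14, adjusted p = 0.00191).

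The genes that fold, cleave, link and bind collagens were read from lists, and 3 genes of each list are named by their p-values. Serpinh1, Hspa5, Lox, Tgm2, Loxl1, Loxl4, Cspg4, Fmod, Dcn, Tgfb1 and Ccn2 were named after their values were seen. Of 23 genes for folding and modification, 16 were lower and 1 higher in KO averaged over diets (median log2 fold change -0.24), beside 29.8% lower among all genes. P3h1, a prolyl 3-hydroxylase, fell, at -0.57, -0.65 and -0.34 on SFA, n6 and n3, and Colgalt1, which puts galactose on hydroxylysine, at -0.39, -0.51 and -0.37. P4hb, the shared subunit of the prolyl 4-hydroxylases, fell, at -0.32, -0.47 and -0.24. Serpinh1, the collagen chaperone HSP47, was 0.01 and -0.01 on SFA and n6, and rose on n3, at 0.20 (adjusted p = 0.00733). The endoplasmic reticulum chaperone Hspa5 passed no test on any diet (log2 fold change -0.01, -0.07 and 0.04 on SFA, n6 and n3).

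Of 15 genes for cleavage and crosslinking, 12 were lower and 2 higher (median -0.39). Pcolce2, an enhancer of the C-propeptidase, fell, at -1.0, -0.75 and -0.68 on SFA, n6 and n3, Adamts2, the N-propeptidase, at -0.51, -0.55 and -0.31, and Pxdn, which crosslinks type IV collagen, at -0.47, -0.46 and -0.40. Lox and Tgm2 were the 2 that rose, at 0.14 (adjusted p = 0.0215) and 0.11 (adjusted p = 0.00169) averaged over diets, while Loxl1 and Loxl4, of the Lox family, fell, at -0.59 and -0.66. Of 12 receptors and uptake genes, 8 were lower and 1, Cspg4, higher (median -0.25). Mrc2, the receptor that takes collagen fragments into cells, fell, at -1.18, -1.33 and -1.02, Antxr2 at -0.36, -0.37 and -0.13, and the integrin chain Itgb1 at -0.19, -0.29 and -0.26.

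Basement membrane partners were lower in 13 of 14 and higher in none (median -0.27). Lamb3, a laminin chain, fell, at -1.56, -1.70 and -1.08 on SFA, n6 and n3, Hspg2, which encodes perlecan, at -0.74, -0.64 and -0.67, and Nid2, a nidogen, at -0.43, -0.77 and -0.50. Of 15 fibril-binding proteins, 13 were lower and 1, Fmod, higher (median -0.28). Prelp fell, at -0.56, -0.54 and -0.38, Thbs2 at -0.71, -0.49 and -0.58 and Sparc at -0.37, -0.42 and -0.29. Decorin (Dcn) fell on SFA and n6, at -0.43 and -0.22 (adjusted p = 6.72e-06 and 0.00673) and was -0.12 on n3 (adjusted p = 0.132).

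The TGF-beta axis, the main known inducer of fibrillar collagen genes, had 9 of 16 genes lower and 5 higher averaged over diets (median -0.12), beside 29.8% lower and 27.8% higher among all genes. Tgfb3 fell, at -0.53, -0.83 and -0.38 on SFA, n6 and n3, and Tgfb1 at -0.18, -0.35 and -0.42. Ltbp2, a latent TGF-beta binding protein, rose, at 0.76, 0.66 and 0.58, and the signal carrier Smad3 at 0.44, 0.42 and 0.18. Ccn2, a usual TGF-beta target, fell, at -0.45 (adjusted p = 0.00163) averaged over diets.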

How the data were processed

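Bulk RNA-seq was deposited for 24 libraries of inguinal white fat. The submitters' processing notes name fastp 0.23.2, Salmon and the mm10 build. The version of Salmon, the annotation and the library strand are not given there. The authors deposited estimated counts per gene and a second table of TPM, matched by gene name for 32261 of 35727 genes.

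Counts were rounded to whole numbers. The filterByExpr rule of edgeR, set to a minimum count of 10 and a minimum total of 15, retained 15259 genes and 99.98% of counts. After TMM scaling, edgeR 4.0.16 (R 4.3.3) fitted 1 coefficient per group over the 24 libraries with robust quasi-likelihood (18 residual degrees of freedom). P-values were adjusted by Benjamini-Hochberg over all genes, with a threshold of 0.05. CPM uses the same scaling. Adjusted p-values in the text come from this test unless another tool is named. The script was tested on simulated data. Within groups, all 36 pairs of libraries differed beyond counting noise (chi-square per degree of freedom 7.09 to 34.6).

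The alternatives were RLE scaling, no filter, DESeq2 1.42.0, limma 3.58.1 on log2(TPM + 1) and log2(TPM + 0.1), an effective length offset, only the groups compared, a replicate block, omitting the 3 marker-high libraries (high for markers of B cells or muscle), and leaving out each library. Library values are given for 20 chains: 9 main chains of types I, III, IV, V and VI, the 3 called chains with the largest changes in each comparison and the 5 with the smallest interaction p. From each pathway list the 3 called genes with the smallest p for the average over diets were named. The members and lists were chosen with earlier results of these data known. Glycine codons and repeats were read from GENCODE M21 coding sequences of GRCm38. A gene of the pathway lists that counts in its list's totals is not reported here by name.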

Additional observations from a re-analysis of the deposited data

Results flagged for a closer look

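In 8 of the 120 groups of 4 libraries checked for the 20 chains given by library, 1 library stood far from the other 3. Chance alone gives about 1 in 20. The low ones were Col3a1 in KO on SFA replicate 3 (2036 CPM, others 3305 to 3562), Col4a1 in WT on n3 replicate 4 (3260 CPM), Col6a5 in WT on n6 replicate 4 (2.413 CPM) and Col28a1 in WT on n6 replicate 1 (15.17 CPM). The high ones were Col6a1 in WT on SFA replicate 4 (931.7 CPM), Col20a1 in WT on SFA replicate 1 (1.78 CPM), Col28a1 in KO on n3 replicate 4 (21.33 CPM) and Col8a1 in WT on n3 replicate 3 (18.4 CPM).

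The genotype difference depended on diet for 4 chains, with edgeR interaction adjusted p of 0.013 for Col28a1, 0.0232 for Col27a1, 0.0434 for Col20a1 and 0.0472 for Col6a2. Between single pairs of diets, the log2 difference of KO against WT changed from SFA to n6 by 0.48 for Col27a1 (adjusted p = 0.0493) and from SFA to n3 by -0.88 for Col28a1 (adjusted p = 0.0465). From n6 to n3 it changed by 0.37 for Col5a3 (adjusted p = 0.04), -0.83 for Col20a1 (adjusted p = 0.0202), 0.46 for Col6a2 (adjusted p = 0.0194), -0.43 for Col27a1 (adjusted p = 0.0258) and -0.94 for Col28a1 (adjusted p = 0.0087). Of these 7 changes between pairs of diets, that of Col28a1 from n6 to n3 passed under every alternative and with each library left out.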

How the results depend on the processing

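Numbers of called chains in the genotype comparisons stayed within 1.5 times of those reported under every alternative run, and leaving out 1 library gave 23 to 25 averaged over diets, 18 to 22 on SFA, 19 to 22 on n6 and 12 to 17 on n3. The matching shares of all genes were 55.3 to 58.3%, 34.3 to 38.7%, 37.5 to 42.4% and 30.9 to 43.1%. Every alternative and omission kept 21 of the 24 calls averaged over diets, 17 of 21 on SFA, 13 of 23 on n6 and 10 of 15 on n3. Col6a5 on n6 reversed with the effective length offset (0.17, adjusted p = 0.749). For n6 against SFA in WT (11 called), log2(TPM + 1) gave 18 and the length offset 7, and leaving out 1 library gave 6 to 12, with under 8 without WT on SFA replicates 2 or 4 or WT on n6 replicate 3. The share of all genes called there moved from 24.7% to 40.9% and 19.6%, and was 15.4 to 27% with 1 library left out. For n3 against SFA in WT (0 called), DESeq2 gave 1, and leaving out 1 library gave 0 to 1, with 1 without WT on SFA replicate 1 or WT on n3 replicate 2. Of all genes, 0.144% were called in the main fit, 2.22% in DESeq2 and 0.0065 to 0.82% with 1 library left out. For n3 against n6 in WT (9 called, 18.4% of all genes), only the groups compared gave 15 (21.2% of all genes). For n6 against SFA in KO (8 called), log2(TPM + 1) gave 14, log2(TPM + 0.1) 15, and omission of the 3 marker-high libraries 4. Leaving out 1 library gave 4 to 11 there, with 5 or fewer without KO on SFA replicates 1, 3 or 4 or KO on n6 replicate 3. The share of all genes in that comparison was 22.8% in the main fit and 25.4%, 25.8% and 7.78% under these 3 alternatives. It was 13.3 to 27.2% with 1 library left out. For n3 against SFA in KO (2 called), DESeq2 gave 4, no filter, the length offset and omission of the 3 libraries 1 each, and the 3 TPM fits and only the groups compared 0 each, while leaving out 1 library gave 1 to 3, with 1 without KO on SFA replicates 1 or 3 or KO on n3 replicates 1 or 2. All genes were called at 1.46% in the main fit, 3.85% in DESeq2 and 0.213 to 1.41% under the other alternatives named. With 1 library left out the share was 0.52 to 5.58%. For n3 against n6 in KO (4 called), omission of the 3 libraries gave 1, and leaving out 1 library gave 1 to 7, with 1 without KO on n6 replicate 2 or KO on n3 replicates 1 or 3, 2 without KO on n6 replicate 1 and 7 without KO on n3 replicate 4. Its share of all genes fell from 26% to 7.82% without the 3 libraries, and was 13.3 to 34.3% with 1 library left out. For the interaction (4 called), no filter and the 3 TPM fits gave 2 each, DESeq2 8, omission of the 3 libraries 1, and leaving out 1 library 1 to 7, the low end without WT on n6 replicate 2 or KO on n6 replicates 1 or 2 and the high end without KO on n3 replicate 2. Its share of all genes was 6.44% in the main fit, 2.95% with no filter and 2.68 to 5.29% in the TPM fits. DESeq2 called 12.9%, omission of the 3 libraries 2.61%, and leaving out 1 library 3.26 to 16.4%. The cause of these shifts was not tested. Only the groups compared gives no value for the average and the interaction. The labels used here do not say what a shared replicate number stands for. In no comparison did every pair of deviations correlate above 0.1 (range -0.144 to 0.257). In KO, 2 pairs did for n6 against SFA, 2 for n3 against SFA and 1 for n3 against n6. These correlations cannot settle whether some of the libraries were paired. With a replicate block the genotype counts were 24 averaged, 20 on SFA, 23 on n6 and 14 on n3, and the interaction count was 2. Shares of all genes with the block were 57.5%, 39.6%, 42.4% and 38.6%, and 6.17% for the interaction. At this depth 5 of the 44 chains had too few counts to be tested.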
